A study of Mus musculus with 2 samples.

Results

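The voltage sensor and ryanodine receptor complex was followed in gastrocnemius, the large calf muscle, through 10 genes chosen by name: Ryr1, Cacna1s, Cacnb1, Cacng1, Cacna2d1, Stac3, Jph1, Jph2, Fkbp1a and Jsrp1. All 10 had reads in both libraries, of 15371 annotated mouse genes with a read in at least 1. Long-read RNA sequencing, in which 1 read covers 1 RNA molecule from its poly(A) end as far as the copy runs, was done on muscle of 2-month-old female B6CASTF1/J mice, first-generation hybrids whose parental alleles were not told apart here. The labels give a single group of 2 libraries, each from 2 µg of starting RNA, replicate 1 from animal 3 and replicate 2 from animal 4, with synthetic spike-in RNA added. They also give both libraries 1 donor identifier, so whether the spread between them is that of separate animals rests on the animal numbers alone. Ratios between the libraries are replicate 1 over replicate 2.

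In skeletal muscle the voltage sensor is the L-type calcium channel of the transverse tubule, a deep fold of the surface membrane. Its pore subunit, encoded by Cacna1s, senses the action potential and opens the ryanodine receptor, the calcium release channel of the sarcoplasmic reticulum encoded by Ryr1, by direct coupling rather than through calcium entry. The junctophilins hold the membranes close together, and the beta subunit and Stac3 are needed for the channels to assemble and couple.

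Replicate 1 had 1349298 reads and replicate 2 had 1359923. Levels are given in CPM, reads scaled to a library of 1000000, and a count of 0 allows up to 2.22 CPM in replicate 1 and 2.21 CPM in replicate 2. Spike-in RNA took 3.64% and 1.49% of the reads. Fast-fibre markers were abundant, with 60497 and 61924 CPM summed over 10 genes, of which 5 were called higher in replicate 1 and 4 lower. Of 6 cardiac markers Nppa, Nppb, Tnni3 and Ryr2 had no read, with 8.89 and 10.3 CPM in all. The sum of the slow-fibre markers differed more than that of the fast-fibre ones, with 1639 CPM in replicate 1 and 9546 CPM in replicate 2. Of these 10, 9 were called lower in replicate 1. Adipocyte markers summed to 1127 and 107 CPM, with 6 of 6 called higher in replicate 1, and nerve and Schwann cell markers to 631 and 89.0 CPM, with 5 of 5 tested called higher. Smooth muscle markers summed to 221 and 89.0 CPM, with 4 of 5 called higher in replicate 1. Endothelial markers summed to 165 and 113 CPM, with 1 of 4 called higher. Fibroblast markers summed to 1882 and 1842 CPM, with 1 of 4 called higher and 1 called lower. The satellite cell markers had 4 reads and 1 read.

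Together the 10 genes took 0.252% of all reads in replicate 1 and 0.249% in replicate 2. Ryr1 (chr7:29003344-29125179, minus strand, mm10 here and throughout) averaged 753 ± 65.2 CPM (SD, n = 2), with 799 CPM in replicate 1 and 707 CPM in replicate 2, which ranked it 112 among all genes. Cacna1s (chr1:136052750-136119822, plus strand) averaged 723 ± 70.1 CPM (SD, n = 2), with 673 CPM in replicate 1 and 772 CPM in replicate 2. The ranges of Ryr1 and Cacna1s overlapped, so their order was not resolved: there were 1.19 reads of Ryr1 per read of Cacna1s in replicate 1 (95% Wilson interval of the read split 1.09 to 1.30) and 0.915 in replicate 2 (0.839 to 0.999). Both stood above every other member in both libraries.

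The accessory subunits of the voltage sensor were less abundant. Cacnb1 (chr11:98001508-98023034, minus strand), the intracellular beta subunit, averaged 221 ± 19.5 CPM (SD, n = 2), with 235 CPM in replicate 1 and 207 CPM in replicate 2. Cacng1 (chr11:107703218-107716522, minus strand), the gamma subunit that lowers the calcium current, had 110 CPM in replicate 1 and 69.9 CPM in replicate 2. Cacna2d1 (chr5:15934691-16374511, plus strand), the extracellular alpha-2/delta subunit, had 35.6 CPM in replicate 1 and 70.6 CPM in replicate 2. There were 2.86 and 3.72 reads of Cacna1s per read of Cacnb1, against 18.9 and 10.9 per read of Cacna2d1. Stac3 (chr10:127501686-127508823, plus strand), the adaptor protein needed for coupling to Ryr1, was the least abundant member in both libraries, with 26.7 CPM in replicate 1 and 20.6 CPM in replicate 2. Its reads were outnumbered by those of Cacna1s 25.2 and 37.5 to 1. These are molecules per library and need no division by length, although the copies of long RNAs were often cut short, as given below.

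On the side of the reticulum, Jsrp1 (chr10:80808496-80813498, minus strand), a junctional membrane protein that binds both the voltage sensor and calsequestrin, was the third most abundant member. It had 274 CPM in replicate 1 and 298 CPM in replicate 2, both above either value of Cacnb1. Fkbp1a (chr2:151542483-151561692, plus strand), the small protein that binds and steadies the release channel and is made in many tissues, had 180 CPM in replicate 1 and 144 CPM in replicate 2. Jph1 (chr1:16964560-17097889, minus strand), the junctophilin found mainly in skeletal muscle, had 91.9 CPM in replicate 1 and 136 CPM in replicate 2. Jph2 (chr2:163336242-163397993, minus strand), its relative that is also made in heart, had 94.9 CPM in replicate 1 and 65.4 CPM in replicate 2. The ranges of Jph1, Cacng1 and Jph2 overlapped one another and that of Cacna2d1 overlapped those of Cacng1 and Jph2. The order within these pairs changed between the libraries, except that Cacng1 stood above Jph2 in both. Overlapping ranges do not show equal levels within a library: in replicate 2 there were 2.08 reads of Jph1 per read of Jph2 (95% interval 1.62 to 2.67).

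**Figure D1:**
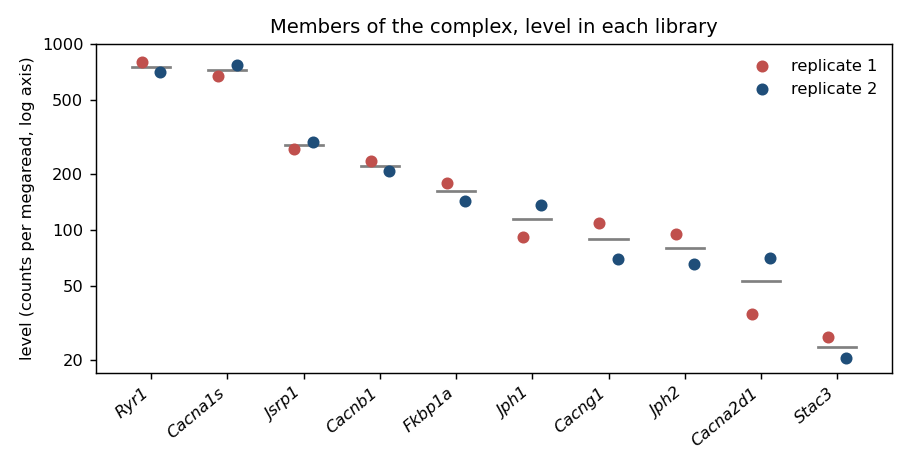
Level of each member in CPM (counts per megaread on the log axis), replicate 1 left and replicate 2 right, with the mean as a grey line. Ryr1 and Cacna1s lie between 673 and 799 CPM in both libraries and Stac3 lies lowest, at 26.7 and 20.6 CPM.

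For each of 9341 genes with 10 or more reads, the gene's reads and the remaining reads of the library were set against those of the other library in Fisher's exact test (two-sided), and the p-values were adjusted over all of these genes (Benjamini-Hochberg). Such a test compares these 2 libraries, and its p-values cover counting error only. Of the 10 members, 4 were called at an adjusted p below 0.05, against a background of 7.82% of the genes tested, and 7 had an unadjusted p below 0.05, against 17.8% of all genes. That background includes genes with as few as 10 reads, where a call is hard to reach. The members had more, from 36 and 28 reads (Stac3) to 1078 and 961 (Ryr1), so the shares are not matched for depth. Background shares given further below were not matched for depth either. Cacng1 was the 1 member called higher in replicate 1 (3.56% of all genes), and Cacna1s, Cacna2d1 and Jph1 were the 3 called lower (4.25% of all genes). The median log2 ratio (CPM + 1) was 0.18 over the members and 0.01 over all genes tested. In bulk muscle, fewer cells of a type and less RNA per cell cannot be told apart. With a dispersion of 0.01 assumed between animals, edgeR's exact test called 0 of the 10 members (lowest adjusted p = 0.0998), and 175 of all genes; 3 members had an unadjusted p below 0.05, against 9.37% of all genes.

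The lowest ratio was that of Cacna2d1, on 48 and 96 reads. It was 0.504 (95% interval 0.357 to 0.711), with an adjusted p of 0.00221 by Fisher's exact test, and with annotated transcripts only its log2 ratio was -2.28, against -0.99. Unannotated models on the opposite strand of Cacna2d1 had 3 and 22 reads, and 54.2% and 96.9% of its own reads covered a stop codon; their part in the ratio was not tested. Jph1 followed with 124 and 185 reads, a ratio of 0.676 (0.538 to 0.848) with an adjusted p of 0.0145 by Fisher's exact test. Cacng1 lay on the other side of 1, with 148 and 95 reads, a ratio of 1.57 (1.21 to 2.03) and an adjusted p of 0.0126 by the same exact test. Cacna1s had 908 and 1050 reads, a ratio of 0.872 (0.798 to 0.953), and its adjusted p of 0.0356 by Fisher's exact test lay near the threshold. That call was lost when only models of 2 or more exons were counted (adjusted p = 0.101), when spike-in and mitochondrial reads were left out of the totals (adjusted p = 0.106) and when every gene with 1 read was tested (adjusted p = 0.0583). With annotated transcripts only, Jph1 was no longer called (adjusted p = 0.894, Fisher's exact test). Leaving out those spike-in and mitochondrial reads brought in Ryr1 as higher in replicate 1 (adjusted p = 0.0211, Fisher's exact test).

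The remaining 6 members were not called. Ryr1 had a ratio of 1.13 (1.04 to 1.23) on 1078 and 961 reads, with an adjusted p of 0.0691 by Fisher's exact test. Jph2 had a ratio of 1.45 (1.11 to 1.90) on 128 and 89 reads, with an adjusted p of 0.0845 by Fisher's exact test. Counted on models of 2 or more exons only, Jph2 was called higher in replicate 1, with a log2 ratio of 1.14 and an adjusted p of 0.000476 by Fisher's exact test. Jph1 and Jph2 thus lay on opposite sides of 1: there were 0.969 reads of Jph1 per read of Jph2 in replicate 1 (0.757 to 1.24) and 2.08 in replicate 2 (1.62 to 2.67), intervals that did not overlap. Fkbp1a had a ratio of 1.25 (1.04 to 1.51), Cacnb1 of 1.13 (0.965 to 1.33) and Jsrp1 of 0.921 (0.800 to 1.06). Stac3, with 36 and 28 reads, had a ratio of 1.30 (0.795 to 2.11), too wide an interval to show a difference of that size. Slow-fibre, adipocyte, nerve and smooth muscle markers moved between the same libraries, as did fast-fibre markers in both directions. The part of these markers in the differences was not tested.

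**Figure D2:**
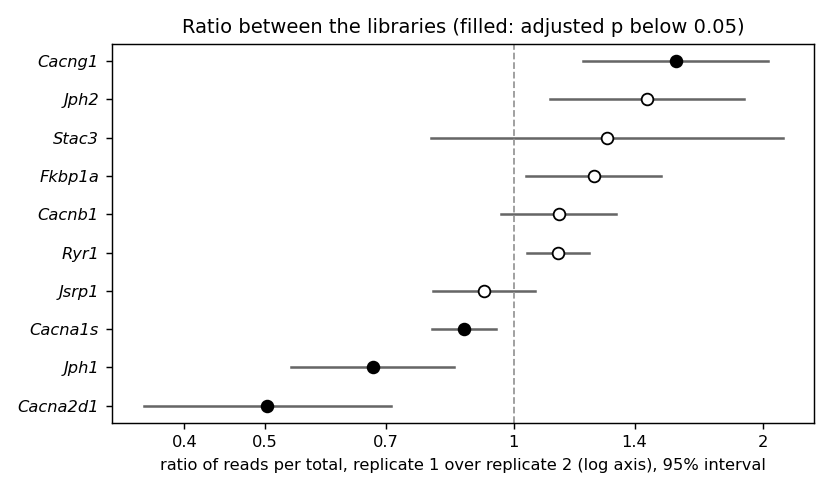
Ratio of each member's reads per library total, replicate 1 over replicate 2 (log axis), with 95% Wilson intervals of the read split. Filled points have an adjusted p below 0.05 over all genes: Cacng1 at 1.57 lies right of 1, and Cacna1s, Jph1 and Cacna2d1 lie left of it.

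The members differed widely in the share of their reads that matched an annotated transcript. A transcript model, the exon structure to which reads were assigned, was classed in the deposited tables as annotated, as an incomplete splice match of an annotated transcript, as a new combination of annotated splice sites, as holding an unannotated splice site, or as genomic. Cacng1 had 86.5% of its reads on annotated transcripts in replicate 1 and 89.5% in replicate 2, Cacnb1 had 87.4% and 81.9%, and Fkbp1a had 83.1% and 85.2%. Cacna1s had 63.9% and 69.1%, nearly all on Cacna1s-204, an RNA of 44 exons and 6104 bases that 577 and 720 reads matched at every junction. At the low end, Jph1 had 21.8% and 17.3%, Stac3 had 16.7% and 7.14%, and Ryr1 had 0 of 1078 and 0 of 961 reads. Over all annotated genes the annotated class held 65.9% and 65.3% of reads. Incomplete splice matches took 94.2% and 94.3% of the reads of Ryr1. Of its spliced reads, 85.7% and 80.5% used annotated junctions only, against 94.3% and 94.1% for Cacna1s and 35.6% and 33.7% for Jph1.

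Reads were also counted that covered an annotated start codon, that of any coding transcript of the gene, shorter ones included. They made up 88.5% and 92.6% for Cacng1, 88.5% and 87.8% for Fkbp1a, 89.9% and 87.2% for Cacnb1 and 89.7% and 75.6% for Jsrp1. Cacna1s covered such a start codon in 72.5% and 76.8% of reads, Jph1 in 69.4% and 65.9%, and Jph2 in 61 of 128 and 32 of 89 reads. For Cacna1s that of the shorter Cacna1s-206, of 1507 codons, also counted. Fewer reads, 613 and 768, held exon 2 of Cacna1s-204. Cacna2d1, with 35.4% and 59.4%, and Stac3, with 63.9% and 35.7%, lay on opposite sides between the libraries, a difference not tested here and based on 48 and 96 reads and on 36 and 28.

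For the annotated share, Fisher's exact test was run over 5025 genes with at least 20 reads in each, of which 1.09% were called. Of the members, 1 was called: Jsrp1, with 57.8% in replicate 1 (95% Wilson interval 52.8 to 62.8) and 44.4% in replicate 2 (39.7 to 49.3), adjusted p = 0.0232 by the exact test. Single-exon reads of Jsrp1, which lie at its 3′ end, made up 9.73% in replicate 1 and 23.2% in replicate 2. Cacna2d1 had 20.8% and 51.0%, with an adjusted p of 0.0515 by the exact test. When incomplete splice matches were counted with the annotated ones, Jsrp1 was no longer called and Cacna2d1 was (adjusted p = 5.6e-05, Fisher's exact test). The single-exon reads of Cacna2d1 were classed as genomic in replicate 1 (16 reads) and as incomplete splice matches in replicate 2 (24 reads), so that count added them in 1 library only. Those of Stac3 were classed the other way round, with 4 incomplete splice matches in replicate 1 and 12 genomic reads in replicate 2.

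The most abundant transcript of each gene was tested in the same way over 4881 genes, of which 1.7% were called. Of the members, 2 were called by Fisher's exact test. In Jph2 the largest set over both libraries summed was single-exon reads, pooled whatever their position, with 83 against 82 of Jph2-201. They were 36 of 128 in replicate 1 (28.1%) and 47 of 89 in replicate 2 (52.8%), an adjusted p of 0.0238 by the exact test. The full transcript, Jph2-201, took 53 reads, more than the single-exon set, in replicate 1 and 29 in replicate 2. In Jsrp1 the largest was Jsrp1-203, with 213 of 370 reads (57.6%) and 180 of 405 (44.4%), adjusted p = 0.0219 by the exact test. Among annotated models alone, neither was called. In Cacng1, Fkbp1a, Cacnb1 and Cacna1s 1 annotated transcript dominated both libraries, and its share differed by 5.03 percentage points or less.

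Other structures held fewer annotated exons or unannotated splices. In Ryr1 a 16-exon model of 2586 bases had 339 and 268 reads, a 15-exon model of 1794 bases had 188 and 170, and a 12-exon model of 1485 bases had 69 and 47. All of these end at the 3′ end of the gene and lack most of its exons. Single-exon reads numbered 50 and 73 in Cacna1s, 13 and 19 in Cacnb1, 15 and 6 in Cacng1, 16 and 24 in Cacna2d1, 20 and 22 in Fkbp1a, 20 and 22 in Jph1 and 4 and 12 in Stac3. A 10-exon model of Cacna2d1 had 3 and 2 reads, an unannotated 44-exon model of Cacna1s had 10 and 11, a 3-exon model of Jph2 had 16 and 6, and a 10-exon model of Stac3 had 4 and 4. An unannotated 5-exon model of Fkbp1a had 10 and 5 reads, and a 4-exon one of Cacng1 had 1 and 2. In Jph1 there were unannotated 6-exon forms of 4386 bases, with 37 and 52 reads, and 4235 bases, with 16 and 26, described below. Among full annotated transcripts, Cacnb1-204 had 248 and 213 reads, Cacnb1-202 had 29 and 18, Cacna2d1-201 had 10 and 47 reads, Jph1-201 had 27 and 32, and Fkbp1a-201 had 200 and 165. In Jsrp1, a form that lacks exon 2 had 39 and 39 reads and one that starts at exon 2 had 26 and 43.

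**Figure D3:**
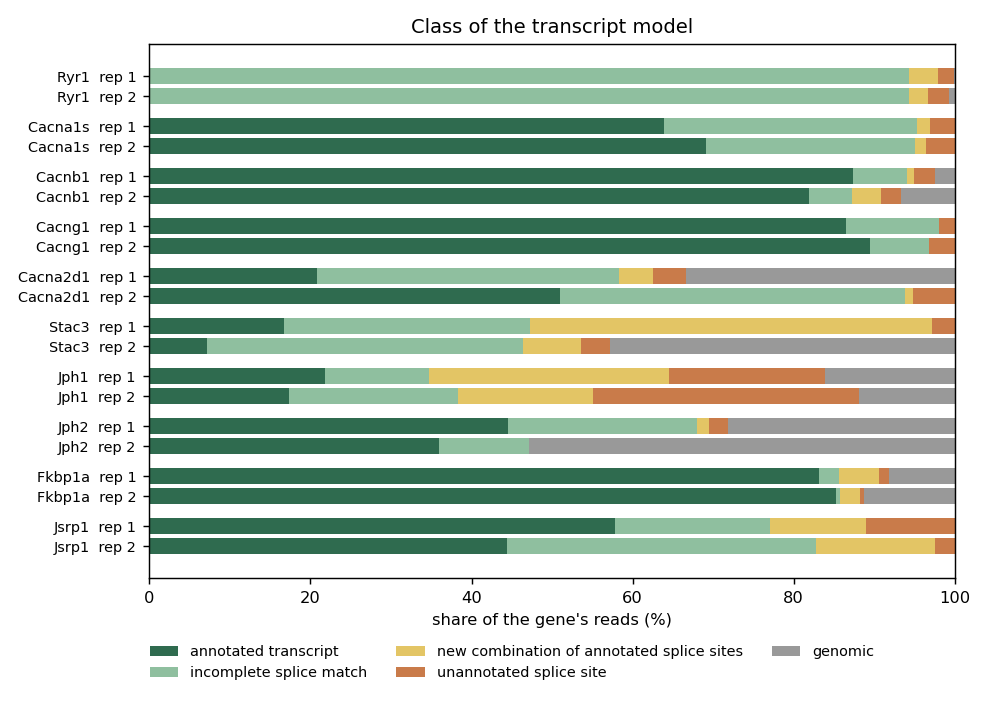
Share of each member's reads by class of transcript model, replicate 1 above replicate 2 for each gene. Annotated transcripts hold over 80% of the reads of Cacnb1, Cacng1 and Fkbp1a, and none of the reads of Ryr1.

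Ryr1 is the longest of the members. Its annotated transcript Ryr1-202 has 106 exons and 15358 bases and lies on the minus strand at chr7:29003344-29125179 (mm10). The reads held the 3′ end: 99.3% in replicate 1 and 98.1% in replicate 2 covered the stop codon, but 2 and 1 reads covered the start codon. The longest model in replicate 1 had 104 exons and 15353 bases on 2 reads, and that in replicate 2 had 104 exons and 15325 bases on 1 read. Reads on models of at least 8000 bases numbered 31 and 46, and the median model was 2586 bases in both libraries. Over all genes the annotated share was lower for longer RNAs. Its median was 91.2% for 1463 genes whose longest coding transcript was under 2000 bases, 52.5% for 241 genes of 6000 to 8000 bases, and 2.00% for 23 genes of 12000 bases or more, 7 of them at 0. The annotated share of Ryr1 does not measure reach alone. Every full-length annotated coding transcript contains exon 83, which no read held as a separate exon, as given below. Even the longest model of each library was classed as a new combination of annotated splice sites.

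The reads of Ryr1 did not begin evenly along the RNA. Exon 91, the longest exon at 792 bases, held the beginning of 345 reads in replicate 1 and 272 in replicate 2. Exon 92, of 71 bases, held that of 189 and 177 reads. Together these neighbours held 49.5% and 46.7% of all read beginnings in the 2 libraries. The next exons were 95, with 70 and 49 reads, and 74, with 41 and 42. Per 100 bases of exon, 266 and 249 reads began in exon 92, 43.6 and 34.3 in exon 91, and 36.3 and 37.2 in exon 74. A model has 1 start for all of its reads, so the spread of beginnings within an exon was not resolved, and 8 and 15 reads began outside the exons of Ryr1-202. From the start of exon 91, 823 of 5035 codons remain, 16.3% of the coding sequence, which encodes the membrane-spanning pore end of the protein.

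Exons 91 and 92 were also the exons of Ryr1-202 with the highest GC content, 70.7% and 69.0%, against a median exon of 56.4%. Across all 106 exons, Spearman's rho between GC content and beginnings per 100 bases was -0.12 in replicate 1 and -0.05 in replicate 2, a description of exons that share 1 library each. The part of GC content in where reads begin was not tested. Exon 92 at chr7:29018763-29018833, minus strand, is shown because it held the densest read beginnings; capitals mark the exon, from GENCODE M21.
Ryr1 exon 92: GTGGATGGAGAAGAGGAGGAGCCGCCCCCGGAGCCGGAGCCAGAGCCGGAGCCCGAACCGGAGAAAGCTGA

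**Figure D4:**
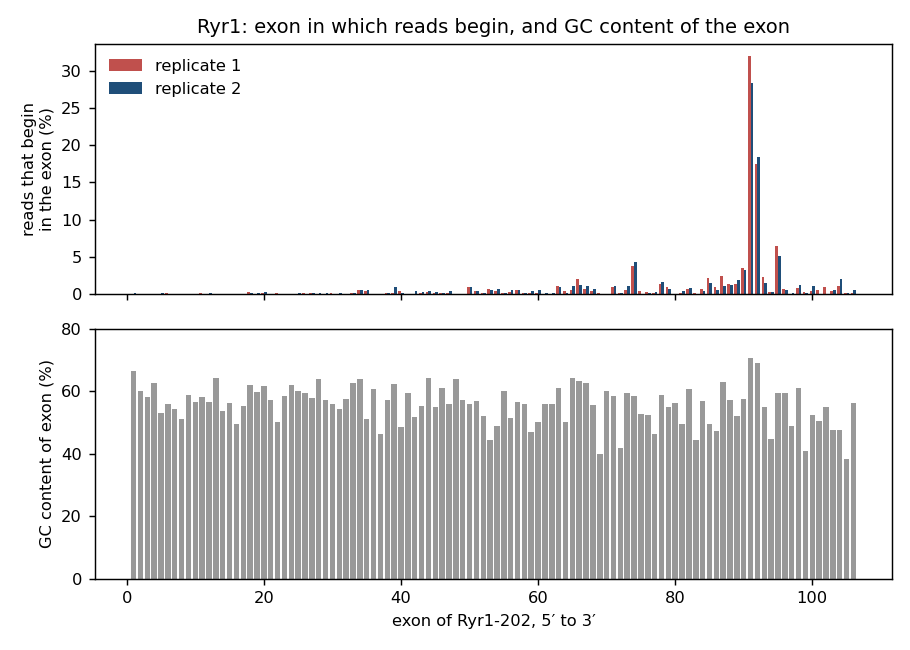
Upper panel, share of Ryr1 reads that begin in each exon of Ryr1-202, numbered 5′ to 3′, for replicate 1 and replicate 2; lower panel, GC content of the same exons. Exons 91 and 92 hold 49.5% and 46.7% of the beginnings and have the highest GC content, 70.7% and 69.0%.

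Several members carry exons that are known to switch with age or tissue. Exon 29 of Cacna1s, of 57 bases and 19 codons, is skipped in the embryonic form of the channel, which passes more calcium current. In this adult muscle the included share was 779 of 782 reads for replicate 1 (99.6%, 95% Wilson interval 98.9 to 99.9) and 901 of 907 for replicate 2 (99.3%, 98.6 to 99.7). The skipped form had 3 and 6 reads. A form of the exon that ends 3 bases earlier, at an unannotated site, had 1 and 10 reads; its share of the reads at that junction, 0.127% and 1.08%, gave an adjusted p of 0.444 by Fisher's exact test over 71 splice choices compared in the members. None of those choices was called, and 5 had an unadjusted p below 0.05 by the exact test. Junctions that compete at the same site count as separate choices, so neither the 71 nor the 5 are independent. Near the 3′ end, Cacna1s-206 has the first 9 bases of exon 43 as an exon of their own. Exon 43 as a whole was included in 837 of 837 and 953 of 953 reads, so its 9 bases were present there. As a separate exon they were in 0 of 14 and 0 of 15 of the reads that spliced past them. The 144-base exon of Cacna1s-201 is a shortened form of exon 43, from an acceptor 9 bases further on that took 13 of 841 and 14 of 966 reads. In Cacna2d1 the 57-base exon 19, present in Cacna2d1-201 alone among the annotated transcripts, was included in 18 of 18 and 60 of 60 reads. The 21-base and 9-base exons that other annotated transcripts carry further on were in 0 of 19 and 0 of 61 reads, which allows up to 3.75% of the pooled reads by counting error alone. In other genes, exons of 10 bases or fewer were never seen, as given for Ryr1. For the 9-base exons of Cacna2d1 and Cacna1s, the zeros therefore say no more than that such exons were not seen. The zero of the 21-base exon has to be read beside longer ones. Among exons of 21 to 30 bases that every coding transcript over them contains, 250 of 272 in other genes were included in at least 90% of reads, and 7 stood at 0. The exons that were included are shown with 15 bases of the neighbouring exons, the exon itself in capitals, at chr1:136104570-136104626 (plus strand) and chr5:16322539-16322595 (plus strand). Sequences are those of the C57BL/6J reference, taken from GENCODE M21 on GRCm38 (mm10).
Cacna1s exon 29: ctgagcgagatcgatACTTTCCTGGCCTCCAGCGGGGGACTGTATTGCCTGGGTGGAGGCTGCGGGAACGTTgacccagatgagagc
Cacna2d1 exon 19: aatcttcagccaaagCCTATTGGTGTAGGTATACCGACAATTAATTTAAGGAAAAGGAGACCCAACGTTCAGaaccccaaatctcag

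Cacnb1 has alternative exons in the middle of the gene that exclude each other. The 155-base exon, known from the muscle form of the beta subunit, was included in 289 of 290 and 253 of 254 reads. The 20-base exon, known from the form of brain, was included in 2 of 302 and 1 of 258 reads. Both lie on the minus strand, at chr11:98011343-98011497 and chr11:98010627-98010646, and are shown with their spliced neighbours in lower case.
Cacnb1 exon of 155 bases: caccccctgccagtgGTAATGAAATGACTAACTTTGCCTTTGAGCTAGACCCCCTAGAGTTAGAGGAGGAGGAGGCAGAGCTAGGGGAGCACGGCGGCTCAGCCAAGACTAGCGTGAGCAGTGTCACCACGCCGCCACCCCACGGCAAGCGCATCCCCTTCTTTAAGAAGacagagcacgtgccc
Cacnb1 exon of 20 bases: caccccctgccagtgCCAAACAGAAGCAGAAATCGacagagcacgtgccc
The 3′ end was as uniform: 303 and 259 spliced reads ended in the exon that holds the stop codon of Cacnb1-204 and Cacnb1-202, and 1 and 3 were spliced on to the last exon of Cacnb1-201.

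The start of Cacnb1 was split between alternative first exons. The first exon of Cacnb1-204 was spliced to the shared next exon in 253 of 285 reads (88.8%) and 225 of 244 reads (92.2%), a mean of 90.5 ± 2.43% (SD, n = 2). The upstream pair of exons, as in Cacnb1-202, was used in 29 of 285 reads (10.2%) and 18 of 244 (7.38%). An embryonic and an adult form of this subunit with different starts have been described in mouse muscle. The reading frames begin with different codons: Cacnb1-204 has 477 codons and Cacnb1-202 has 524. The coding parts are shown in capitals, the first at chr11:98018273-98018302, the others at chr11:98022342-98022425 and chr11:98019680-98019766, all on the minus strand.
Cacnb1-204 exon 1, coding part: ATGGAGGTGCCCAGCCGGACCCTGGTAGTG
Cacnb1-202 exon 1, coding part: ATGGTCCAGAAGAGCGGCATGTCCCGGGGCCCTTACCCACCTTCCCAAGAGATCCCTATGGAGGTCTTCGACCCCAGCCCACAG
Cacnb1-202 exon 2: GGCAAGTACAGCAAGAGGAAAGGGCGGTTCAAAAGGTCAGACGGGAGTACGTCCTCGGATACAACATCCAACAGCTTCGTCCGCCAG

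The 250 bases before each of these starts differed in composition. RefSeq's promoter table (GRCm38.p6) held windows for 6 of the 10 members, among them both starts of Cacnb1. The window before the start of Cacnb1-204 had a GC content of 56.0% and 1 CG pair, and the one before the upstream start, that of Cacnb1-202, had 73.2% and 26 CG pairs. Over 32851 promoters of the same length the median was 52.4% GC and 6 CG pairs, with quartiles of 2 and 16 pairs. Both are given 5′ to 3′ on the minus strand with CG pairs in capitals, at chr11:98018373-98018622 and chr11:98022628-98022877.
Before Cacnb1-204: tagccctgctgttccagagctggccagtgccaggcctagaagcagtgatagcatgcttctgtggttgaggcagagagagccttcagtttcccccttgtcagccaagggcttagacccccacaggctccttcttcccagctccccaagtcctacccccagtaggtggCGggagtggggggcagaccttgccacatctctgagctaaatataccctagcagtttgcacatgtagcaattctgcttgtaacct
Before Cacnb1-202: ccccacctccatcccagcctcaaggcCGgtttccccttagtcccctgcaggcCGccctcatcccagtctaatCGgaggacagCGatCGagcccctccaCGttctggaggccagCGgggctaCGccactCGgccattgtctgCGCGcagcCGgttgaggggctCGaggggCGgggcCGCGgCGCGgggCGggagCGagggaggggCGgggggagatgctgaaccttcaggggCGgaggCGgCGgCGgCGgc
Neither window held CAGCTG, a palindrome bound by muscle regulatory factors, nor TATAAA on either strand. CAGCTG was found in 4 of the 8 member windows, those of Cacna1s and Fkbp1a and the overlapping pair of Jph2, and in 13.0% of all promoters. CTA and TAG with any 4 bases between them, the ends of many binding sites of the MEF2 factors, was in 0 of 8 windows and in 3.20% of all promoters. TATAAA was in 0 of 8 windows and in 12.4% of all promoters. A match is a description of letters only.

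Ryr1 has small alternative exons that are known to be skipped more in newborn than in adult muscle. The 15-base exon 70 was absent as a separate exon from all 141 and 164 reads that spanned it. That allows up to 0.984% of the pooled reads to hold it as a separate exon. This limit does not cover 38 and 27 reads with 17 unannotated bases after the exon before it, described below. Whether those bases are exon 70 was not tested. The 18-base exon 83 was likewise absent as a separate exon from all 239 and 264 reads that spanned it. That allows up to 0.596%, although every full-length annotated coding transcript contains exon 83. All of its bases did lie within an exon at least as long in 5 and 5 reads, and those of exon 70 in 1 and 0 reads. Such reads are outside these counts. The annotated junction from exon 83 to exon 84 was used in 5 of 241 (2.07%) and 5 of 267 (1.87%) reads spliced into exon 84. The limit of 0.596% for a separate exon does not cover those reads. In replicate 1, 2 reads began in exon 83, and a read that begins in an exon was not counted for it. Other annotated Ryr1 exons of 30, 27 and 2 bases were likewise at 0 of 311 and 0 of 304, 0 of 311 and 0 of 304, and 0 of 141 and 0 of 164 reads. A further exon of 21 bases was spanned by 2 and 1 reads only.

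These zeros have to be read beside exon length. Among all other genes, exons that every coding transcript over them contains were included in at least 90% of reads in 34633 of 34834 cases when over 100 bases long, and in 250 of 272 cases at 21 to 30 bases. At 16 to 20 bases 15 of 23 reached 90% and 3 stood at 0, at 11 to 15 bases 8 of 8 stood at 0, and at 10 bases or fewer 10 of 10 did. Exon 70 falls in the range where no exon was seen, so its skipping in the RNA and its loss in the processing cannot be told apart. For exon 83, most exons of its size were seen, yet 3 of 23 were not, and the same limit holds. Both exons are shown with 15 bases on each side, the exon in capitals, at chr7:29056234-29056248 and chr7:29044919-29044936 on the minus strand.
Ryr1 exon 70: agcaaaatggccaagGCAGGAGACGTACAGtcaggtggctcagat
Ryr1 exon 83: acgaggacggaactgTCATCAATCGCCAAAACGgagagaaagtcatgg

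At exon 70 a further form was seen. Of the reads spliced into exon 71, 100 of 138 (72.5%) and 135 of 162 (83.3%) came from the annotated end of exon 69. The other 38 (27.5%) and 27 (16.7%) came from an unannotated site 17 bases further on, so exon 69 was 17 bases longer in them. The adjusted p between the libraries was 0.444 by Fisher's exact test. Whether those 17 bases are intron or the 15 bases of exon 70 placed there by the alignment was not tested, since the genome sequence was not used here. Outside these small exons the coding exons of the members were seldom skipped. Taken were exons that every coding transcript over them contains and that at least 20 pooled reads spanned. Among these, exon 83 of Ryr1 alone was included in less than 90% of the reads. They were 41 exons of Cacna1s, 36 of Cacna2d1, 78 of Ryr1 and between 2 and 10 of each other member. Reads with a shifted border, such as the longer exon 69, counted as neither included nor skipped, so changes of border do not show in this measure.

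**Figure D5:**
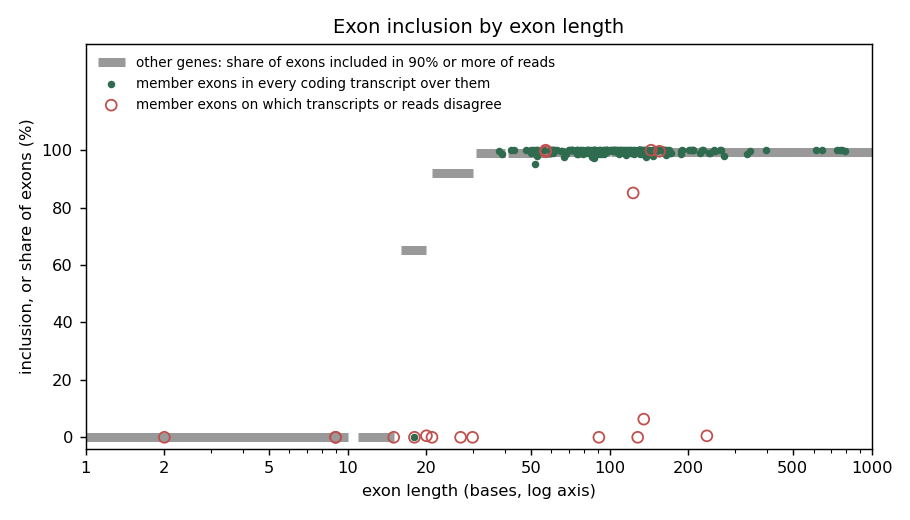
Pooled inclusion of the members' exons against exon length (log axis), with, in grey, the share of other genes' exons that are included in at least 90% of reads. Member exons on which annotated transcripts or reads disagree are open circles; those of 15 and 18 bases in Ryr1 lie at 0%, in a range of length where the grey bars are at 0% and 65.2%.

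Jsrp1 was the 1 member with exons of intermediate inclusion, between 5% and 95%, among those with at least 20 reads in each library. Its exon 2, of 123 bases, which holds the start codon of Jsrp1-203, was included in 256 of 297 reads (86.2%) and 213 of 254 reads (83.9%), a mean of 85.0 ± 1.65% (SD, n = 2). Reads without it join exon 1 to exon 3, as annotated in the short transcript Jsrp1-202. An unannotated exon of 135 bases, at chr10:80812770-80812904 between exons 1 and 2, was included in 14 of 275 (5.09%) and 19 of 247 (7.69%). Of 1973 alternative exons tested over all genes 0.405% were called, and neither of these was (Fisher's exact test, adjusted p = 1 for both, unadjusted p = 0.472 and 0.280). The coding part of exon 2 at chr10:80812295-80812412, minus strand, is given in capitals because its skipping removes the start codon of Jsrp1-203. Jsrp1-202, which skips it, is annotated with a reading frame of 78 codons.
Jsrp1 exon 2, coding part: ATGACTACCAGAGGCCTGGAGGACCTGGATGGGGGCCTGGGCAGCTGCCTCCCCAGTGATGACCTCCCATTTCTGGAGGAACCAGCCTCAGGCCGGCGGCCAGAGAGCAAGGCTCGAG

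The junctophilins were spliced after their stop codons. In Jph2-201 the annotation places an intron 17 bases past the last coding base, and 92 of 92 and 42 of 42 reads over that site were spliced there. In Jph1 the annotation has no such intron, yet 67 of 98 reads (68.4%, 95% Wilson interval 58.6 to 76.7) and 106 of 157 reads (67.5%, 59.8 to 74.3) were spliced from a site 18 bases past the last coding base. The splice trims the last coding exon to 96 bases in Jph1, against 95 bases in Jph2. In Jph1 all but 1 of the spliced reads joined 1 of 3 sites: the nearest pair, 3 bases apart, took 47 and 67 reads and 1 and 6 reads, and the one 151 bases further on took 19 and 32. The remaining reads ran on unspliced, as in the annotated Jph1-201. The intron lies outside the reading frame of 660 codons. The deposited class of each of the main spliced forms differed between the libraries, although the introns were the same, so their reads fall in different colours in the plot of class shares. Gm28376, an annotated gene on the other strand that shares 34 exonic bases with Jph1, had 16 and 43 reads, and whether strand was kept in counting is not given in the sources used here.

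In Stac3, the annotated donor of the first exon in Stac3-203 was used in 15 of 21 and 7 of 9 reads, and that of Stac3-201, 75 bases further on, in 4 of 21 and 2 of 9. The most abundant Stac3 model, on 14 and 6 reads, joined that first donor to a set of 12 exons and matched no annotated transcript. In Fkbp1a, a splice site 4 bases before the usual one, annotated in the non-coding Fkbp1a-207, was used in 12 of 223 and 5 of 174 reads. An exon of 235 bases in Fkbp1a-208 had 2 of 218 and 0 of 172 reads, and those of 128 and 91 bases in other annotated transcripts had none. For Cacng1, 128 and 85 of its reads matched Cacng1-201.

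Relatives of the members were nearly silent, with 1 exception. Of 22 paralogues listed, 7 had a read. Cacng6, another gamma subunit of calcium channels, had 280 CPM in replicate 1 and 246 CPM in replicate 2, and so 2.55 and 3.52 reads per read of Cacng1. It was not called between the libraries (ratio 1.14, 0.985 to 1.32, adjusted p = 0.374 by Fisher's exact test). Cacna2d3, an alpha-2/delta subunit, had 11 and 18 reads. Cacna1g and Cacna2d4 had 2 reads and 1 read each, Cacnb4 had 0 and 2, Cacna1c had 0 and 1, and Stac had 1 and 0. The other 15, which include Ryr2, Ryr3, Fkbp1b, Jph3 and Jph4, had no read in either library.

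Of 30 other genes of the triad, the junction of tubule and reticulum, 29 had enough reads. By the same exact test 7 were called higher in replicate 1 and 5 lower, against the background shares of 3.56% and 4.25%, and the median log2 ratio (CPM + 1) was 0.06. The lowest ratios were those of Atp2a2, the slow-muscle and cardiac calcium pump, with 142 CPM in replicate 1 and 796 CPM in replicate 2, and of Hrc, a calcium-binding protein of the reticulum, with 625 and 1902 CPM. Casq2, the slow and cardiac calsequestrin, had 53.4 and 104 CPM, and Trdn, triadin, which anchors calsequestrin to Ryr1, had 522 and 883 CPM. Atp2a2 and Casq2 also stand among the slow-fibre markers. The highest called ratios were those of the kinase gene Camk2a, with 28.2 and 11.8 CPM, the calmodulin genes Calm3, with 474 and 345 CPM, and Calm2, with 197 and 146 CPM, and Pvalb, the calcium buffer of fast fibres, with 1047 and 827 CPM. The most abundant were Atp2a1, the calcium pump of fast fibres, with 149332 and 143096 CPM, Casq1, with 4067 and 3373 CPM, Srl, with 2998 and 2801 CPM, and Tmem38a, a potassium channel of the reticulum, with 1764 and 1652 CPM. Atp2a1, Casq1 and Srl were called higher in replicate 1 at ratios of 1.04, 1.21 and 1.07.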

How the data were processed

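The deposited tables of 2 gastrocnemius libraries hold, per transcript model, a count of long reads, whole numbers whose totals differ between libraries. Per the deposited notes, the build was mm10 and the annotation GENCODE M21. Per the file headers, models came from TALON, with their lengths and exon coordinates in bases. Aligner, read filters and strand handling: not given in the sources used here.

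Models were joined between libraries by intron chain, and a gene's unannotated single-exon models were pooled. Gene reads over the library total gave CPM. Genes with at least 10 reads summed, and shares or exons with at least 20 reads in each library, were compared by Fisher's exact test with Benjamini-Hochberg adjustment at 0.05 over all features tested. Exons with a pooled inclusion of 5% to 95% were tested. Shares carry 95% Wilson intervals, and a count of 0 a limit of 3 counts; both cover counting error only. Tools were scipy 1.17.1, edgeR 4.0.16 (exact test, TMM) and DESeq2 1.42.0 (size factors), and the tests were tested on simulated data.

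The members and lists were chosen with earlier results of these data known. Named were all members, every listed paralogue with a read, the called triad genes with the 4 highest and 4 lowest ratios and the 4 with most reads, the 3 largest transcripts and those of 10% or more of each member, and every exon on which annotated transcripts disagree or with intermediate inclusion. Junction choices and sequences were chosen after values were seen. Alternatives covered scaling, filters, model classes and exon borders.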

Additional observations from a re-analysis of the deposited data

How the results depend on the processing

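No paired analysis was possible because the series holds 1 group. Of 58 alternative values of the members' log2 ratios with a test, 46 kept their direction and side of the threshold, 8 lost the call, 2 gained it and 2 reversed; the other 20, from TMM and DESeq2 scaling, had no test and kept their direction. Both reversals were Jsrp1, at 0.26 with annotated transcripts only and 0.11 with models of 2 or more exons only, against -0.12. The count of 4 members called became 0 when edgeR assumed a dispersion of 0.01, with 0 higher and 0 lower. Of all genes it called 175, against 730. The assumed dispersion allows for more spread than counting error alone, which favours fewer calls without fixing their number. Members called higher in replicate 1 numbered 2 with models of 2 or more exons only and 2 without mitochondrial and spike-in reads, against 1. The median member level, 138 CPM, was 140 to 145 CPM with either replicate left out and 55.8 CPM with annotated transcripts only, which removes every Ryr1 read. Among annotated models alone 0 members were called for the most abundant transcript, against 2, and the difference in share, replicate 1 minus replicate 2, reversed for Jph2 (2.36 points), Jsrp1 (-0.467), Cacnb1 (-2.68), Cacna1s (0.309) and Fkbp1a (0.208). The difference in annotated share, with incomplete splice matches counted as annotated, reversed for Jsrp1 (-5.69 points), Cacng1 (1.13), Cacna1s (0.217) and Jph1 (-3.70). The causes were not tested. No exon of a member was called under any alternative. Depth limits Stac3 and Cacna2d1 most, with 36 and 28 reads and 48 and 96 reads.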

Other observations

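Unannotated models on the strand opposite a member had few reads in replicate 1, with 6 over Cacna1s and 3 over Cacna2d1, and in replicate 2, where 22 lay over Cacna2d1 and 6 or fewer over any other member. The member reads were spread over many structures: Ryr1 had 188 distinct models, of which 70 were seen in both libraries and 54.8% rested on 1 read, and Cacna1s had 107, of which 50 were seen in both.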
